A study of Mus musculus with 7 samples.

Results

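The mouse miRNAs mmu-miR-140, mmu-miR-140* and mmu-miR-455 (here miR-140, miR-140* and miR-455) are 3 of the 696 measured, taken by their names in the array's own annotation. MiR-140 and miR-140* are the 2 arms of a single hairpin, carried in an intron of Wwp2, a ubiquitin ligase gene, and miR-455 comes from a hairpin inside Col27a1, a fibrillar collagen gene. All 3 were detected on all 7 arrays. On the scaled signal miR-455 was 1.63-fold higher on the arrays labelled treated, past the adjusted threshold, whereas both arms of miR-140 lay slightly lower there and neither passed it under that scaling. The direction of miR-455 turned when the arrays were not scaled, or were scaled by the spike-in controls, but its level relative to miR-140 on the same array, which a scaling by 1 factor per array cannot move, was 1.97-fold higher on the treated arrays.

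The RNA came from kidneys of male C57BL/6 mice, aged 9 to 12 weeks and collected at day 28, and was labelled with Cy3 and hybridised to 7 one-colour arrays. Of these, 3 are labelled treated (replicates 1, 3 and 4) and 4 non-treated (replicates 1 to 4). The record describes a model of kidney scarring in which the left ureter is tied off (unilateral ureteral obstruction) and a sham operation that exposes the ureter without tying it, and does not say which operation, if any, stands behind each label. The series title names sham kidneys and the treated samples carry the letter S, so every direction here is that of the deposited label, treated minus non-treated, and the signs in the study run the opposite way for the miRNAs it lists. The study describes its groups as separate mice, but the labels tie no array to an animal, so the spread between arrays may be partly technical.

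A miRNA is cut from a folded precursor, and each of its arms can be loaded into an Argonaute protein, where bases 2 to 8 (the seed) pair with messenger RNAs and repress them. MiR-140 is best known from cartilage, where the transcription factor SOX9, the master regulator of chondrocytes, drives its expression, and mice without it have short, early-ossifying bones. Col27a1 is likewise a SOX9 target in cartilage, and SOX9 is also active in repairing kidney tubules.

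The mature sequences show which target pairing each arm can make. They are RefSeq entries on GRCm38.p6, and 3 of the 4 arms had one. The array files give miRNA names and no probe sequence, so the match of the older names to arms rests on the nomenclature, in which the star marks the arm once taken to be the lesser one. Capitals mark the seed.
miR-140* (miR-140-3p): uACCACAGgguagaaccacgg
miR-455 (miR-455-3p): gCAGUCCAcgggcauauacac
miR-455* (miR-455-5p): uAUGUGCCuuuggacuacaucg
MiR-140* is 21 bases long and lies on the plus strand at chr8:107551288-107551308 within Wwp2. MiR-455 is 21 bases long, on the plus strand at chr4:63256904-63256924 within Col27a1, and the other arm of its hairpin, miR-455*, is 22 bases long at chr4:63256867-63256888. The 3 seeds differ from one another. Among 1679 mature mouse miRNAs, the seed of miR-455 was found in 0 others, that of miR-140* in 1 other (miR-497b) and that of miR-455* in 1 other (miR-5129-3p), neither of them on the array. MiR-140 itself, the 5p arm, is named only.

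The groups differed in overall brightness, which bears on every member. Before scaling, the 186 miRNAs found on all 7 arrays had a mean log2 signal of 7.24 ± 0.40 (SD, n = 4) on non-treated and 6.09 ± 0.32 (SD, n = 3) on treated arrays, while the spike-in controls averaged 10.50 ± 0.22 and 10.30 ± 0.28. Non-treated arrays detected 232 to 282 miRNAs and treated arrays 193 to 214. Non-treated replicate 3 was the dimmest of its group, at 6.65 against 7.40 to 7.52 for the other 3. Each array was therefore scaled by the mean of those 186 miRNAs, and the 236 miRNAs that either group detected on all its arrays were tested with limma at a Benjamini-Hochberg adjusted p below 0.01. That test called 130 of 236 (55.1%), with 55 (23.3%) higher and 75 (31.8%) lower on treated arrays, and the values of the groups did not overlap for 162 (68.6%). The split moved to 36 higher and 121 lower with scaling by the mean of all miRNAs, to 7 and 162 with no scaling, and to 18 and 170 with scaling by spike-in controls. Against these shares, 1 of the 3 members was called and 2 of the 3 did not overlap.

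**Figure D1:**
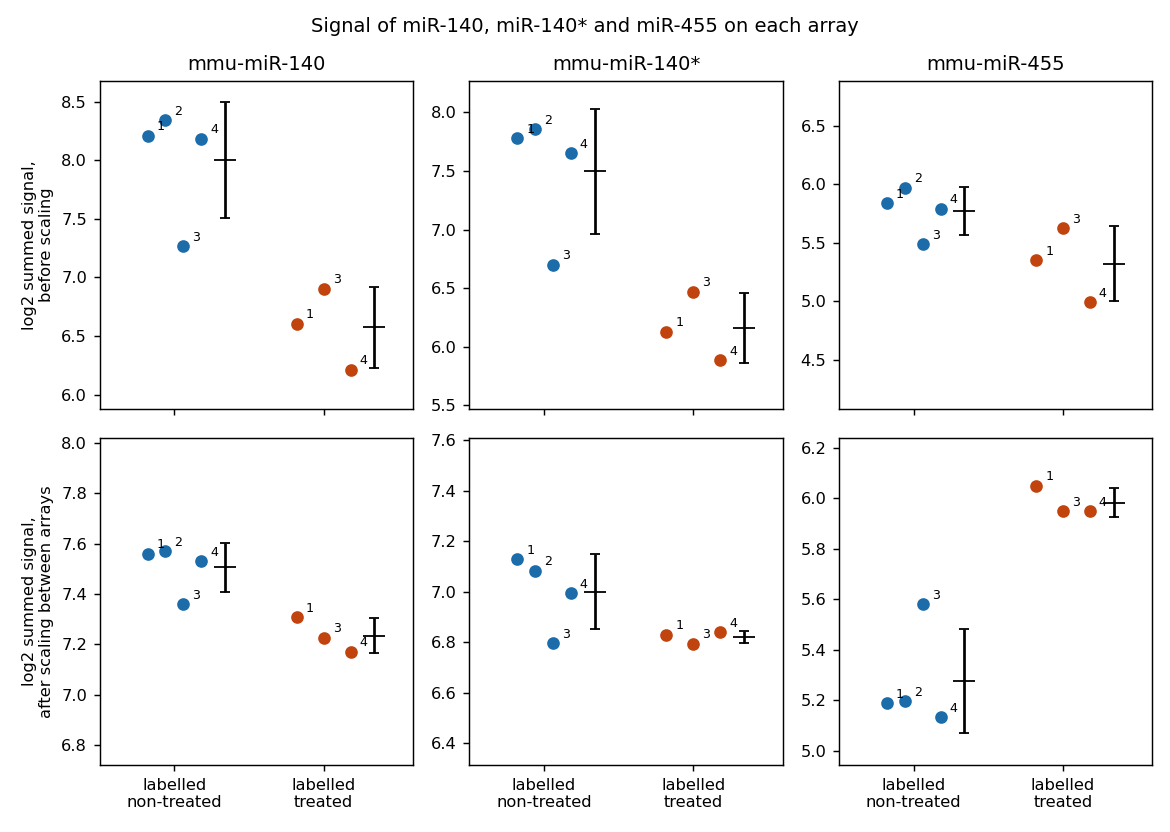
Log2 summed signal of miR-140, miR-140* and miR-455 (columns) before and after scaling between arrays (rows). Each numbered point is an array with its replicate number, and black marks give the group mean ± SD. Before scaling all 3 members had lower means on treated arrays; after it miR-455 sits at 5.95 to 6.05 on treated arrays against 5.13 to 5.58 on non-treated ones, with non-treated replicate 3 the highest of its group.

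MiR-140 is the 5p arm, whose known targets include Adamts5, a protease that degrades cartilage matrix. Its summed signal as measured was 296, 324, 154 and 291 on non-treated replicates 1 to 4, and 97.4, 120 and 74.2 on treated replicates 1, 3 and 4. After scaling the signals were 189, 190.0, 164 and 185 on non-treated arrays and 158, 150 and 144 on treated ones. All 3 treated arrays thus lay below all 4 non-treated arrays on both scales, with non-treated replicate 3 nearest to them. The scaled log2 signal was 7.51 ± 0.098 (SD, n = 4) against 7.24 ± 0.069 (SD, n = 3), a difference of -0.27 (SE 0.069, 95% interval -0.44 to -0.10). Its limma adjusted p of 0.0114 missed the threshold. The exact 2-sided permutation test, which doubles the smaller tail, gave 0.057, the smallest p it allows for 3 arrays against 4. Without non-treated replicate 3 the difference was -0.34 and passed (limma adjusted p = 0.00121).

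MiR-140* is the 3p arm of the same precursor, and its different seed gives it other potential targets. Its summed signal was 220, 231, 104 and 201 on non-treated replicates 1 to 4, and 69.9, 88.7 and 59.0 on treated replicates 1, 3 and 4. Scaling brought these to 140, 136, 111 and 127, and to 114, 111 and 115. The treated arrays were nearly level, and non-treated replicate 3 lay among them, so the groups overlapped. The scaled log2 means were 7.0 ± 0.15 (SD, n = 4) and 6.82 ± 0.024 (SD, n = 3). The difference of -0.18 (SE 0.085, 95% interval -0.38 to 0.024) did not pass limma's threshold (adjusted p = 0.101), and its exact permutation p was 0.171. It passed at -0.27 without non-treated replicate 3 (limma adjusted p = 0.00318).

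MiR-455 has been placed beside miR-140 in studies of cartilage formation. Its summed signal was 57.2, 62.6, 44.8 and 55.3 on non-treated replicates 1 to 4, and 40.7, 49.4 and 31.8 on treated replicates 1, 3 and 4. Here the groups overlapped, because treated replicate 3 was brighter than non-treated replicate 3. Scaled signals were 36.4, 36.7, 47.9 and 35.1 on non-treated arrays and 66.3, 61.8 and 61.8 on treated ones, so that the groups separated and non-treated replicate 3 came nearest to the treated arrays. On the scaled log2 signal miR-455 was higher on treated arrays, at 5.98 ± 0.058 (SD, n = 3) against 5.27 ± 0.21 (SD, n = 4). The difference was 0.71 (SE 0.12, 95% interval 0.43 to 0.98; limma adjusted p = 0.00136), with an exact permutation p of 0.057. Leaving out any single array kept the call, with differences between 0.66 and 0.79. With normexp background correction and an added offset of 50, the difference was smaller, at 0.28, and still called (limma adjusted p = 0.00214). An offset of that size by itself shrinks log2 differences of signals this faint, and its part was not tested separately. Relative to miR-140 on the same array, the difference of miR-455 under that setting was 0.70.

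The other arm of that hairpin, miR-455*, was close to the detection limit. It was detected on 3 of 4 non-treated and 3 of 3 treated arrays. Scaled signals were 5.36, 4.93, 4.44 and 4.11 on non-treated arrays and 10.3, 9.87 and 9.96 on treated arrays, without overlap. All 4 non-treated values fell under the floor of 5.85 set for the test, so the fitted difference of 0.78 (SE 0.039, limma adjusted p = 4.69e-06) depends on that floor, and it was 1.10 with a floor of 1. As for miR-455, the difference needed the scaling, since it was -0.067 (adjusted p = 0.857) on unscaled signals and 0.15 (adjusted p = 0.399) after spike-in scaling.

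**Figure D2:**
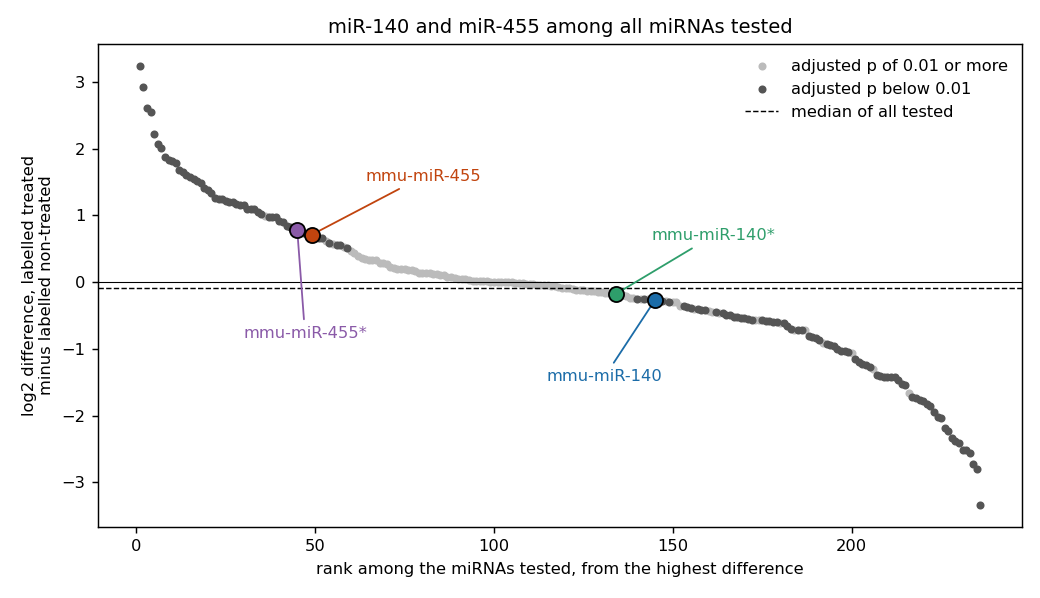
Log2 difference (treated minus non-treated, scaled signal) of the 236 tested miRNAs in order of size, with the dashed line at their median and dark points past the adjusted p of 0.01. MiR-455 stands at rank 49 from the top, miR-140* at 134 and miR-140 at 145, so the miR-140 arms lie in the middle of the distribution.

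Every member was read by 2 probes of 10 spots each, and the probes agreed in sign for all 3. The probes of miR-140 gave -0.29 (SE 0.048, limma adjusted p = 0.00134) and -0.25 (SE 0.088, adjusted p = 0.0373), so that only the first passed. Those of miR-140* gave -0.20 and -0.17, neither past the threshold. Both probes of miR-455 were higher on treated arrays, by 0.79 (SE 0.16, limma adjusted p = 0.00416) and 0.70 (SE 0.11, adjusted p = 0.00126), although the first was faint, at a signal of 4.02 to 8.0 before scaling. For comparison, the 95th percentile of the negative control spots was 0.735 to 1.4. The median coefficient of variation between the spots of a probe was 17.4% for miR-140, 11.6% for miR-140* and 17.7% for miR-455.

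The choice of scaling set the direction of miR-455 and the call of the miR-140 arms, and moved their ranks among the 236 tested miRNAs less. Over the 6 scalings miR-455 ranked 44 to 50 from the top, miR-140* 134 to 138 and miR-140 127 to 150, and quantile normalisation put miR-140 above miR-140*. The median of all tested miRNAs was -0.084 under the main scaling, -0.30 with the 75th percentile of the detected miRNAs, -0.56 with the mean of all miRNAs, -1.20 with no scaling, 0 with quantile normalisation and -1.04 with the spike-in controls. MiR-455 followed at 0.71, 0.46, 0.20, -0.45, 0.85 and -0.24 in that order, past limma's threshold under the main scaling and quantile normalisation alone. MiR-140 stood at -0.27, -0.52, -0.78, -1.43, -0.033 and -1.22, and passed except under the main scaling and quantile normalisation. MiR-140*, at -0.18, -0.43, -0.69, -1.34, -0.11 and -1.13, passed under the same 4 scalings. Taken relative to the median of all tested miRNAs, miR-455 was 0.75 to 0.85 above it under the 6 scalings, miR-140 0.033 to 0.23 below it, and miR-140* 0.096 to 0.14 below it. Apart from the floor, all of these scalings except quantile normalisation shift every miRNA on an array alike. Ranks and distances from the median could thus hardly change under them, and only quantile normalisation was free to move them.

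**Figure D3:**
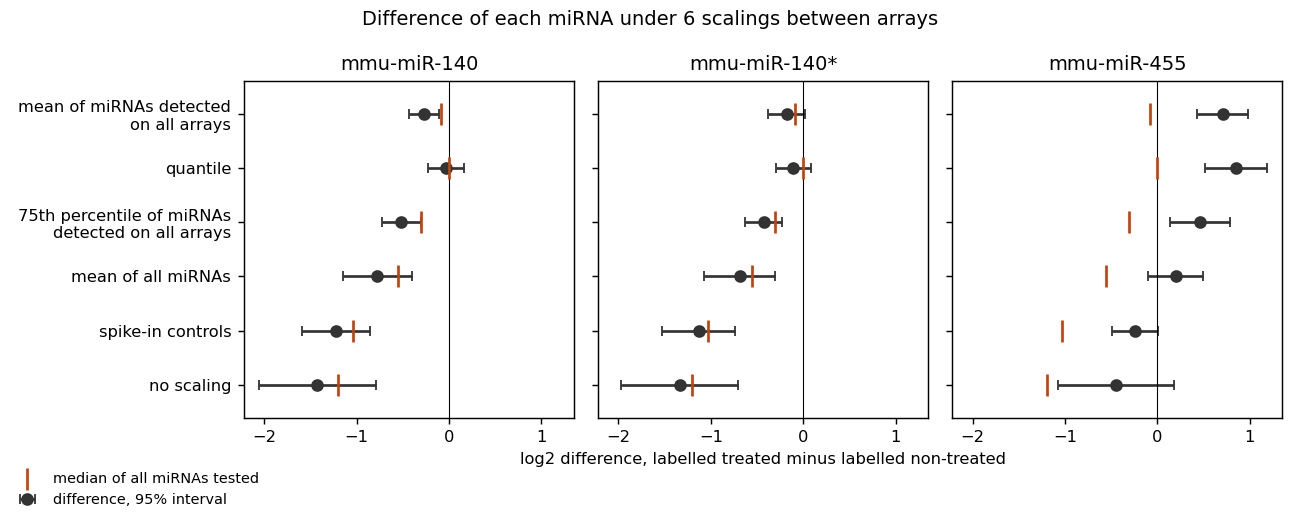
Log2 difference (treated minus non-treated) of each member with its 95% interval under 6 scalings between arrays, with a red tick at the median of all tested miRNAs under that scaling. MiR-455 lies right of the tick throughout but crosses 0, from 0.85 with quantile normalisation to -0.45 with no scaling, while the miR-140 arms stay near the tick. Apart from the floor, only quantile normalisation could change the distance to the tick.

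The ratio of a pair of members on the same array is free of any scaling by 1 factor per array, though not of quantile normalisation, and shows only that they changed unequally. MiR-455 relative to miR-140, with the mean of the non-treated arrays set to 0, stood at -0.14, -0.14, 0.45 and -0.17 log2 on non-treated replicates 1 to 4 and at 0.97, 0.95 and 1.01 on treated replicates 1, 3 and 4. The treated arrays were within 0.1 of each other and lay above all non-treated arrays, of which replicate 3 was the nearest. The difference of 0.98 (SE 0.18, 1.97-fold) had an exact 2-sided permutation p of 0.057, adjusted over the 3 pairs to 0.0856. MiR-455 relative to miR-140* gave -0.22, -0.16, 0.51 and -0.13 against 0.95, 0.88 and 0.84, a difference of 0.89 (SE 0.20, 1.85-fold) with the same exact p. After quantile normalisation these differences were 0.89 and 0.96. The arms of miR-140 kept closer to each other. Their ratio differed by -0.09 (SE 0.050, exact permutation p = 0.171), and by 0.074 after quantile normalisation (exact permutation p = 0.457), with unnormalised overlapping ranges of -0.17 to -0.027 on treated and -0.074 to 0.059 on non-treated arrays. With 3 arrays against 4 and the smaller tail doubled, none of these ratios could reach an exact p below 0.057.

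**Figure D4:**
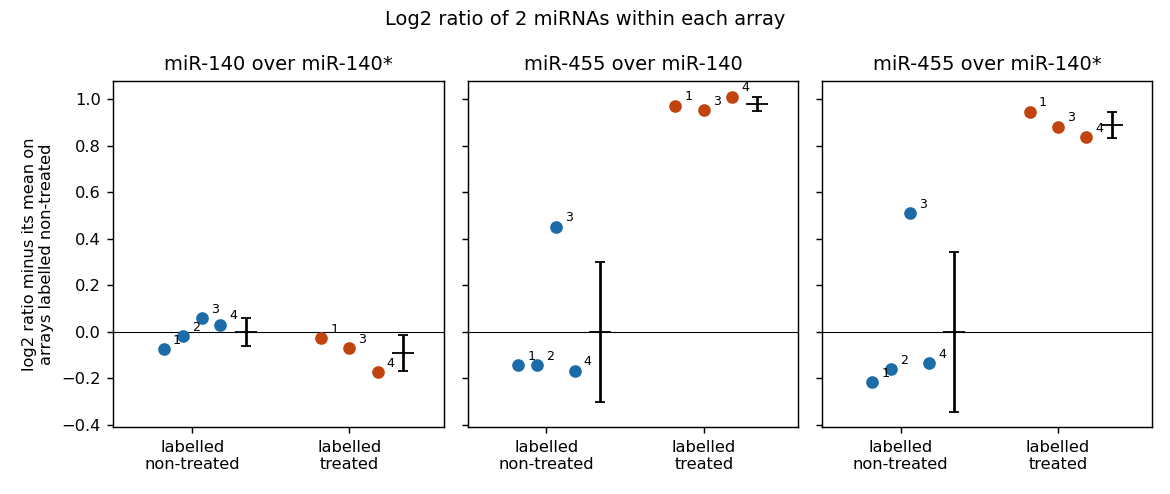
Within-array log2 ratio of each pair of members, minus its mean on non-treated arrays, with a point per array and the group mean ± SD. Both ratios with miR-455 separate the groups, at 0.84 to 1.01 on treated arrays and at most 0.51 on non-treated ones, and the ratio of the miR-140 arms does not.

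Over the 7 arrays, scaled log2 signals of miR-140 and miR-140* had a Pearson r of 0.885, those of miR-140 and miR-455 of -0.939, and those of miR-140* and miR-455 of -0.853. These describe 2 groups that share 1 scaling, not a trend across independent kidneys. Among the other 185 miRNAs detected on all arrays, those most like miR-140 were miR-148a (r = 0.975), miR-15b (0.956) and miR-497 (0.956), whose scaled log2 differences were -1.86, -0.41 and -1.15. MiR-140* was most like miR-15b (0.901), miR-1 (0.895) and miR-34b-5p (0.890). MiR-455 was most like miR-200a* (0.992), miR-30a* (0.992) and miR-200b (0.985), with differences of 1.25, 1.21 and 0.90. MiR-200b is a guardian of the epithelial state that represses Zeb1 and Zeb2, and its difference was -0.25 with no scaling. All 3 thus lie, like miR-455, above the median of the tested miRNAs.

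Other miRNAs that target SOX9 or act in cartilage were called in both directions, as were the tested miRNAs at large (23.3% higher, 31.8% lower). Of 22 listed, 21 were on the array and 14 were tested, of which 4 were higher on treated arrays, 6 were lower and 4 were not called, with a median of -0.08 beside -0.084 for all tested miRNAs. The higher ones were miR-365 (1.51), a mechanically responsive chondrocyte miRNA, miR-29b (1.18), which represses collagen genes, miR-30a (1.16) and miR-101a (0.66). Under no scaling or spike-in scaling 0 of the 14 were higher and 9 were lower. Over all 236 tested miRNAs, 7 were higher and 162 lower with no scaling, and 18 and 170 with spike-in scaling. MiR-101a turned to -0.49 and -0.29 under these settings, and miR-29b and miR-30a came to 0.019 and 0.0029 with no scaling.
MiR-145, which targets Sox9 directly, was lower by 0.82 log2, from 4.89 to 4.07. MiR-199a-3p and miR-199a-5p had the lowest values of the list, -2.55 and -2.41, followed by miR-574-3p (-1.03), miR-574-5p (-0.84) and miR-27a (-0.72). MiR-574-3p was detected on 4 of the 7 arrays. Its treated mean of 2.61 lay close to the floor of 2.55, so its value and call depend on the detection filter and the floor. The 6 lower ones kept their sign under the 6 scalings. Apart from the floor, the alternatives other than quantile normalisation shift every miRNA further down than the main scaling. Only quantile normalisation could therefore have turned a lower one. The values of the 4 that were not called were 0.28 for miR-29a, -0.15 for miR-101b, -0.0033 for miR-27b and -0.0059 for miR-335-5p. MiR-335-5p was detected on 5 arrays and lay at the floor in both groups, so its value near 0 is not a measured one. MiR-675-5p and miR-675-3p, which come from the SOX9-regulated H19 transcript, were among the 5 detected on 0 arrays.

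Marker miRNAs of several cell types also moved with the labels, and a change of cell mix cannot be told apart from a change per cell in whole kidney. The 8 tubule epithelium markers (such as miR-192 and miR-200b) were all detected on all 7 kidney arrays, and 5 were higher, 1 lower and 2 not called, beside 23.3% higher and 31.8% lower over all 236 tested. Their summed scaled log2 level was 10.82 to 11.21 on non-treated and 12.29 to 12.36 on treated arrays, and the highest non-treated value belonged to replicate 3, as for miR-455. All 6 mesenchymal miRNAs were lower (sums of 11.54 to 11.74 against 9.40 to 9.44), as were all 4 white blood cell markers (10.06 to 10.45 against 8.04 to 8.17). Both red blood cell markers were higher (10.08 to 11.19 against 12.17 to 12.32).
Of the endothelial markers 0 of 2 were called (10.79 to 10.93 against 10.80 to 10.89), and of the striated muscle markers 0 of the 2 tested, with miR-206 detected on 0 arrays. The muscle sums (4.77 to 5.92 against 4.77 to 4.81) cover all 4 listed, the untested ones included, with values under the floor set to it. On treated arrays these sums rest largely on the floor. With no scaling, 2 of the 8 tubule markers were higher and 2 lower, and 1 of the 2 red blood cell markers was higher. Both endothelial and both tested muscle markers were then lower (medians of -1.12 and -1.80). Over all 236 tested miRNAs, 7 were higher and 162 lower under that setting, with a median of -1.20. Spike-in scaling likewise put both endothelial and both tested muscle markers lower (-0.91 and -1.73), beside 18 higher and 170 lower of all 236 (median -1.04). The part of these cell types in the values of miR-140, miR-140* and miR-455 was not tested.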

How the data were processed

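Total RNA from mouse kidney was hybridised to 7 one-colour Agilent miRNA arrays on 1 slide, scanned in 1 run. The labels name the RecoverAll kit for extraction. The study's methods name another kit for tissue and cells, and RecoverAll for human kidney fixed in formalin and embedded in paraffin. The deposited files hold processed intensity per spot (Feature Extraction 10.7.3.1, background subtracted by the authors' scanner software) and no read depth. The number of arrays limits the precision. A deposited value table, in unstated units, equalled the processed signal of each probe's first spot on 6 arrays and its error estimate on treated replicate 4 (relative tolerance 1e-05), with column medians of 0.420, 0.509, 0.447 and 0.321 (non-treated 1 to 4) and 0.311, 0.263 and 1.00 (treated 1, 3 and 4).

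Processed intensities of unflagged spots were averaged per probe, the probes of each miRNA were added up, and arrays were scaled by their mean log2 over the 186 miRNAs found on all 7. Values were floored at 5.85 (2.55 on the log2 scale) and tested over 236 miRNAs with limma 3.58.1 in R 4.3.3 at an adjusted p below 0.01. The study's methods name log2 values, a t-test at 0.01 and normalisation by array means. Here the mean is over the 186 miRNAs, and 0.01 applies to the adjusted p of limma. Ratios were compared by an exact 2-sided permutation test over 35 splits, with the smaller tail doubled. On simulated data with as many rises as falls, 53 of 60 changes of 1.50 log2 were recovered, with 1 false call. Those changes were larger than the members' and balanced in direction, so they do not test the choice of scaling. Arrays of a group correlated at 0.990 or above. Named miRNAs were the members, the other arm of mir-455, the 3 miRNAs most correlated with each member, and lists of SOX9 or cartilage miRNAs and cell type markers. The members and lists were chosen with earlier results of these data known. Alternatives covered scaling, background, probes, floor, detection filter, slide row, replicate block and leaving out each array.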

Additional observations from a re-analysis of the deposited data

Results flagged for a closer look

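In 3 of 6 measures tested, all of them involving miR-455, non-treated replicate 3 lay far from the rest of its group. Its scaled log2 signal of miR-455 was 5.58 against 5.13 to 5.20, a gap of 0.858 of the group's range. Its miR-455 relative to miR-140 was 0.45 (0.962 of the range) and relative to miR-140* 0.51 (0.888). All 3 are past Dixon's 95% limit for 4 arrays. Chance passes it in about 1 of 20 groups, and the 3 measures share the signal of miR-455. This array was also the dimmest of its group, with a spike-in mean of 10.17 against 10.57 to 10.65, and had the highest sum of tubule markers among the non-treated arrays. Their part in its values was not tested.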

How the results depend on the processing

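MiR-455 turned sign with no scaling (-0.45) and with spike-in scaling (-0.24). It kept its sign but missed the threshold with the 75th percentile (0.46), the mean of all miRNAs (0.20), the deposited value table (0.66), no detection filter (0.71, adjusted p = 0.0145), and, chosen after seeing the data, the deposited table without treated replicate 4 (0.74). MiR-140 passed the threshold with the 75th percentile (-0.52), the mean of all miRNAs (-0.78), no scaling (-1.43), spike-in scaling (-1.22), all spots including flagged ones (-0.28) and its first probe alone (-0.29). MiR-140* passed under the first 4 of these, at -0.43, -0.69, -1.34 and -1.13. Leaving out each array gave -0.34 to -0.21 for miR-140, -0.27 to -0.14 for miR-140*, 0.66 to 0.79 for miR-455 and 112 to 146 called miRNAs. The number called, against 130, was 56 with the deposited table and 93 with that table without treated replicate 4. It was 59 with normexp background correction and an offset of 50, which gave miR-455 a difference of 0.28 (limma adjusted p = 0.00214). The methods' t-test called 130 miRNAs at an unadjusted p below 0.01 and 118 after Benjamini-Hochberg adjustment. Over 14 settings, quantile normalisation among them (added after seeing the data), miR-455 to miR-140 gave 0.70 to 1.13 and miR-455 to miR-140* 0.56 to 1.06. The ratio of the miR-140 arms gave -0.15 to -0.049 in 13 of them and turned to 0.074 with quantile normalisation. Among the 14 settings, a floor of 1 and the scanner software's own summed signal could not move the ratios. The ratios use values without a floor, and that summed signal differed for the members by 1 factor per array. Apart from the scalings and from treated replicate 4 in the deposited table, the cause of these shifts was not tested.

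Replicate numbers showed no clear pairing of the arrays. Deviations of same-numbered arrays correlated at -0.056, -0.064 and 0.18, and 1 of 3 treated arrays correlated best with its own number. With 3 such pairs, this check cannot settle whether the arrays were paired. With the number as a replicate block miR-455 was 0.68 (adjusted p = 0.0158), miR-140 -0.25, miR-140* -0.15, and 108 miRNAs were called.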
